A study of Homo sapiens with 6 samples.

Results

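The integrated stress response transcripts examined here are those of ATF3, ATF4, ATF5, DDIT3, DDIT4, ASNS, TRIB3, CHAC1, SESN2 and PPP1R15A. They were chosen by gene name, with earlier results of these data known. All 10 were found among the 19823 genes of the deposited table and were among the 18130 genes tested. They were measured by RNA-seq of poly(A) RNA in 6 samples of WTc11-derived neurons, glutamatergic excitatory neurons (iNeurons) made from a human induced pluripotent stem cell line. Both groups carried the RBM12 knockdown, made by CRISPR interference in the parental line, which has no added receptor. Of the RBM12-depleted samples, 3 were untreated and 3 received isoproterenol, an agonist of beta-adrenergic receptors that raises cAMP. The labels give no dose or time. The study describes its neuronal line as clonal, with NGN2 under a doxycycline-inducible promoter and with dCas9-KRAB. Neurons with a control guide were not analysed here, so a response cannot be assigned to the loss of RBM12.

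The integrated stress response is a pathway in which kinases that sense unfolded protein, amino acid shortage, viral RNA or heme shortage phosphorylate the translation initiation factor eIF2. Most translation then slows, while short upstream reading frames let the mRNA of the transcription factor ATF4 be translated more. ATF4 in turn switches on genes for amino acid supply, redox balance and, if stress lasts, cell death, and the other transcripts described here are among its reported targets. ATF3 also belongs to the rapid response to cAMP and neuronal activity. The comparison of isoproterenol with untreated samples therefore asks whether ATF3 was higher together with the stress transcripts or without them.

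Values are normalized counts (reads divided by a size factor), 1 of which stood for 0.867 to 1.03 reads, from 18116816 to 21488793 reads per sample. A log2 fold change compares isoproterenol with untreated samples on the log2(normalized count + 1) scale, and a transcript was called when its Benjamini-Hochberg adjusted p over all genes tested was under 0.05. The fit without pairing of the samples is the main one, and the fit with the replicate number as a block is given beside it where it changes a call. The labels do not say that the replicates came from separate cultures, so p-values rest on the spread between these samples, which may be technical. In limma the variance of each gene was also drawn toward a trend over all genes. Its SE and p-values are therefore not those of the 6 values of that gene alone. RBM12 itself was at 244, 279 and 267 normalized counts in the untreated samples and at 195, 238 and 233 in the isoproterenol samples, which gives no measure of its depletion. Of the fixed neuronal markers all 10 were present. Their summed level was 129800 to 131700 normalized counts in untreated and 128800 to 133700 in isoproterenol samples. STMN2 (untreated mean 65330) and MAP2 (33640) made up most of that sum, and TUBB3 was the lowest (77.7). The sum therefore does not measure glutamatergic identity. Pluripotency markers were summed at 51.2 to 84.2 and 59.9 to 71.5 (4 of 6 in the table, SOX2 at 0 in every untreated sample), proliferation markers at 142 to 161 and 134 to 167 (2 of 6), and astrocyte markers at 159.8 to 175 and 134 to 157 (2 of 6). None (0) of these marker genes was called by limma, edgeR or DESeq2 with or without the block, and 0 had an unadjusted p under 0.05 in limma without it. In such bulk samples, fewer cells of a type and less RNA per cell cannot be told apart.

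The promoter sequences are shown because ATF4 and ATF3 bind cAMP response element (CRE) and amino acid response element letters, so the stretches of DNA that could connect cAMP or ATF4 with these genes can be read directly. RefSeq promoters (GRCh38.p14, 250 bases before to 50 after a transcription start, 300 in all) were matched to all 10 genes, with 18 starts in all. They were searched on both strands for the full CRE (TGACGTCA), its core (TGACG, which the full CRE contains on both strands), an amino acid response element (TGATGNAAN) and an AP-1 site (TGANTCA). Of 35116 promoters, 1.85% held the full CRE, 24.6% its core, 3.61% the amino acid response element and 7.71% the AP-1 site. Sequences run 5′ to 3′ on the strand of the gene, with capitals marking the motif letters.
ATF3 (chr1:212565187-212565246, plus strand): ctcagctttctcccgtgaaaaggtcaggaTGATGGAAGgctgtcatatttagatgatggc
ATF4, outer site (chr22:39520386-39520415, plus strand): aaactccttttctCGTCAcagctacgccct
ATF4, inner site (chr22:39520421-39520450, plus strand): taaacggttggggCGTCAaagggagggagg
PPP1R15A, outer site (chr19:48872256-48872285, plus strand): ggaaactccgccgTGACGttgcaaaagctg
PPP1R15A, inner site (chr19:48872352-48872381, plus strand): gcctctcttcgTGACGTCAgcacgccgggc
CHAC1 (chr15:40953250-40953279, plus strand): cctcccctgccGTTGCATCActcctgccag
ASNS (chr7:97872458-97872487, minus strand): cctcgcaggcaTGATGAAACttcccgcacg
The ATF3 stretch lies before the annotated gene, with its amino acid response element at position -191 from the first RefSeq start. No searched motif was found in the window of the second ATF3 start. The rest of ATF3 was not searched, nor were letters that differ from the motifs given, so a CRE at ATF3 is not excluded. PPP1R15A was the gene with a full CRE in a searched window, at position -58, and with a further core at position -152. ATF4 held the core on the opposite strand at positions -160 and -125, and ASNS and CHAC1 held the amino acid response element at positions -68 and -210, in CHAC1 on the opposite strand. In GENCODE release 44 the ATF4, PPP1R15A, CHAC1 and ASNS stretches fall in the 5′ UTR of transcripts with an earlier start. The core was also found at position -4 of the same ASNS start and in an ATF5 window, and AP-1 letters in those of DDIT3 and ATF5, with none of the searched motifs in those of SESN2, DDIT4 or TRIB3. A match describes the letters and shows no binding.

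Among the transcription factors, ATF3 showed the largest difference. ATF3 (ENSG00000162772, chromosome 1, 212565334 to 212620777), a stress-inducible factor of the ATF/CREB family, was counted at 86.7, 77.4 and 114 in the untreated samples and at 119.7, 152 and 228 in the isoproterenol samples, in the order of replicates 1 to 3 used throughout. All isoproterenol values lay above all untreated values, and replicate 3 was the highest sample in both groups. Its mean was 92.6 ± 18.9 normalized counts untreated and 167 ± 55.4 with isoproterenol (SD of 3 samples each), a ratio of 1.80. The log2 fold change was 0.81 (SE 0.21, 95% interval 0.35 to 1.27), and within pairs 1 to 3 it was 0.46, 0.97 and 0.99. ATF3 was not called without the block (limma adjusted p 0.320), and it rose with the replicate block (limma adjusted p 8.76e-06, SE 0.14, interval 0.53 to 1.08). Count models with the block on the recovered reads called it too, with adjusted p 6.63e-07 in edgeR and 0.0208 in DESeq2. Over 20 alternatives the change was smallest when isoproterenol replicate 3 was left out (0.56) and largest when isoproterenol replicate 1 was (1.02), with adjusted p from 6.63e-07 to 0.774. By size of the rise it ranked 18 of 13063 genes whose mean reached 50 normalized counts. Its values rest on 80 to 222 reads per sample.

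ATF4 (ENSG00000128272, chromosome 22, 39519695 to 39522683), the central transcription factor of the pathway, was by far the more abundant transcript and differed little. Untreated samples held 6011, 5249 and 6155 normalized counts of it, and isoproterenol samples 6509, 5613 and 6597. The groups overlapped, since isoproterenol replicate 2 lay below untreated replicates 1 and 3, yet each isoproterenol sample lay above its same-numbered untreated sample. The difference within pairs was 0.11, 0.10 and 0.10 on the log2 scale, with a mean log2 fold change of 0.10 (SE 0.076; limma adjusted p 0.795). With the block ATF4 rose (SE 0.025, interval 0.05 to 0.15; limma adjusted p 0.0040, edgeR 0.0028), while DESeq2 with the block did not call it (adjusted p 0.294). Without the block the log2 fold change was 0.033 when untreated replicate 2 was left out and 0.18 when isoproterenol replicate 2 was. With the block, leaving out pair 1 or pair 3 ended the limma call (adjusted p 0.0675 and 0.0526), and leaving out pair 2 did not (0.0233). The processed pseudogenes ATF4P3 and ATF4P4 made up 2.37% to 3.50% of the counts of ATF4 and these copies, and how reads shared by them were assigned is not given in the sources used here. Since ATF4 is controlled mainly at translation, its mRNA level does not measure the protein.

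ATF5 (ENSG00000169136, chromosome 19, 49928702 to 49933935), an ATF4 relative linked to mitochondrial stress, had 333, 339.6 and 322 normalized counts in untreated and 338, 332 and 313 in isoproterenol replicates. The groups interleaved, and the log2 fold change was -0.02 (95% interval -0.20 to 0.17; limma adjusted p 0.981, with the block 0.956). On the opposite strand its exons share 565 bases with NUP62, so without knowledge of the strand setting its counts are uncertain. NUP62 itself differed by -0.02.

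DDIT3 lay lower with isoproterenol. DDIT3 (ENSG00000175197, chromosome 12, 57516588 to 57521737, minus strand) encodes CHOP, the factor linked to cell death in lasting endoplasmic reticulum stress. Untreated samples had 214, 198 and 188 normalized counts and isoproterenol samples 139, 165 and 166, so every isoproterenol value lay below every untreated value. The mean was 200.2 ± 13.0 in untreated and 157 ± 15.5 in isoproterenol samples (SD of 3 samples each). The log2 fold change was -0.36 (SE 0.12, 95% interval -0.61 to -0.10), with -0.62, -0.26 and -0.18 within pairs, the difference being greatest in pair 1, where that of ATF3 was smallest. DDIT3 was not called by limma (adjusted p 0.481, with the block 0.0505) or by DESeq2 with the block (0.721), and edgeR with the block called it (0.0405). Its exons share 355 bases with MARS1 on the opposite strand, a gene with a mean of 3651 normalized counts and a log2 fold change of 0.04.

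**Figure D1:**
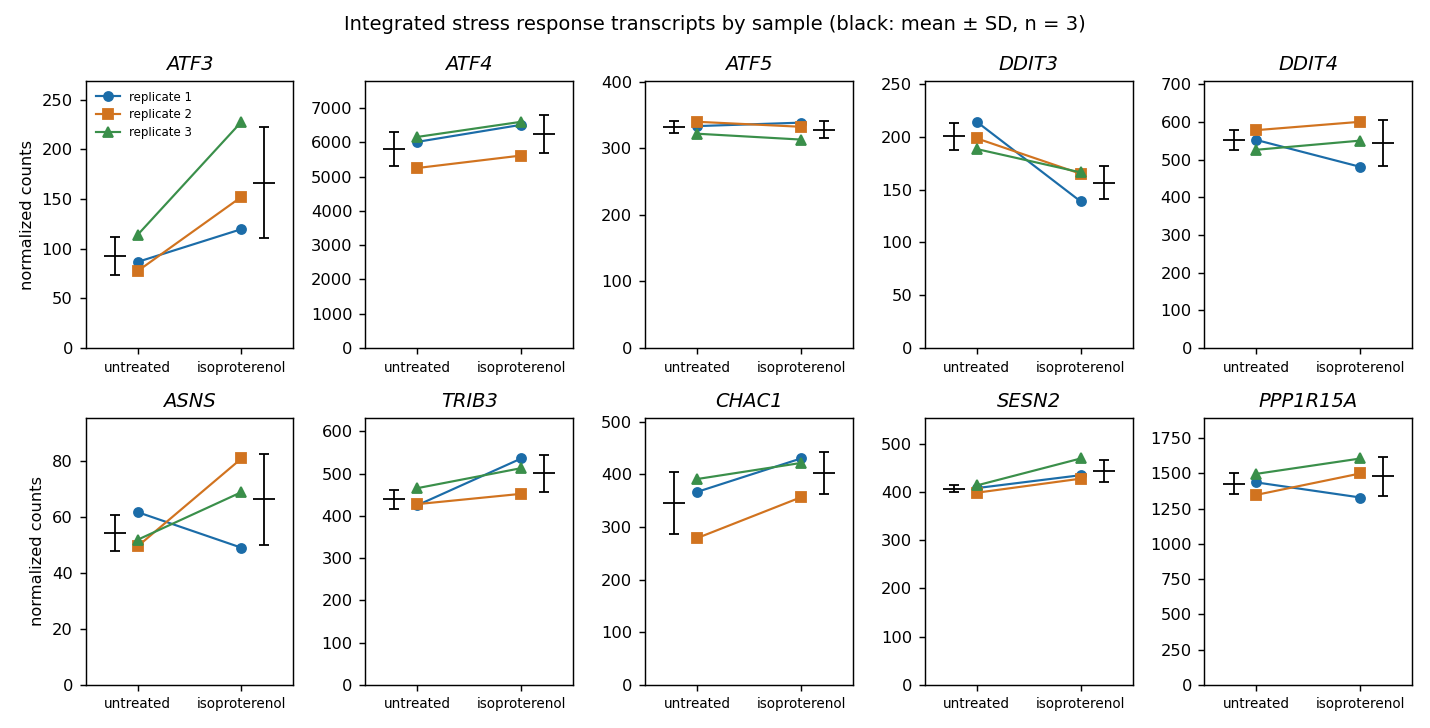
Normalized counts (y axes, each from 0) of the 10 integrated stress response transcripts in untreated and isoproterenol samples. Lines join same-numbered replicates and black bars give the mean ± SD of 3 samples per group. ATF3 lies higher with isoproterenol and DDIT3 lower with no overlap between groups, while ATF4 lies slightly higher in each pair.

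Of the effectors, the feedback regulators come next. PPP1R15A (ENSG00000087074, chromosome 19, 48872212 to 48876059) encodes GADD34, which guides a phosphatase to eIF2 and so ends the response. It had 1436, 1348 and 1497 normalized counts in untreated and 1329, 1500 and 1606 in isoproterenol replicates, lower in pair 1 and higher in pairs 2 and 3. The log2 fold change was 0.05 (SE 0.066, 95% interval -0.09 to 0.19; limma adjusted p 0.906, with the block 0.657). This interval lay below that of ATF3 (0.35 to 1.27), whereas the intervals of ASNS, CHAC1 and TRIB3 overlapped that of ATF3. PPP1R15A was also the single transcript of the 10 with a full CRE in a searched promoter window, and whether that site is used in these neurons was not tested.

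TRIB3 (ENSG00000101255, chromosome 20, 362835 to 397559), a pseudokinase that binds ATF4 and AKT, had 425, 428 and 466 normalized counts in untreated and 536, 452 and 513 in isoproterenol replicates. Isoproterenol was higher in each pair, most so in pair 1 (0.33, 0.08 and 0.14), and the groups overlapped. Its log2 fold change was 0.18 (SE 0.084, 95% interval 0.01 to 0.36; limma adjusted p 0.628, with the block 0.131).

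Among the metabolic and redox targets, CHAC1 (ENSG00000128965, chromosome 15, 40952962 to 40956512), an enzyme that breaks down glutathione, had 367, 279 and 391 normalized counts in untreated replicates and 430.1, 356 and 422 in isoproterenol replicates. Replicate 2 was the lowest sample of both groups, and isoproterenol was higher in each pair (0.23, 0.35 and 0.11). The log2 fold change was 0.23 (SE 0.12, 95% interval -0.02 to 0.48; limma adjusted p 0.667). With the block the interval was 0.07 to 0.39 and the limma adjusted p 0.0731. Leaving out untreated replicate 2 took CHAC1 to 0.084, the lowest of its leave-one-out values, and leaving out untreated replicate 3 to 0.33, the highest. SESN2 (ENSG00000130766, chromosome 1, 28259518 to 28282491), a leucine sensor that restrains mTORC1, had 408, 399 and 414 normalized counts in untreated and 435, 428 and 469.8 in isoproterenol replicates. These groups did not overlap, and the log2 fold change was 0.13 (SE 0.080; limma adjusted p 0.745, with the block 0.419).

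DDIT4 (ENSG00000168209, chromosome 10, 72273919 to 72276036) encodes REDD1, an inhibitor of mTORC1 that also answers to hypoxia and glucocorticoids. It had 552, 579 and 527 normalized counts in untreated and 481, 601 and 551 in isoproterenol replicates, lower in pair 1 and higher in the other two. Its log2 fold change was -0.03 (95% interval -0.20 to 0.15; limma adjusted p 0.966, with the block 0.904). ASNS (ENSG00000070669, chromosome 7, 97851677 to 97872542, minus strand), asparagine synthetase and a classical target of ATF4, had 61.6, 49.4 and 51.7 normalized counts in untreated and 48.9, 80.7 and 68.7 in isoproterenol replicates. The lowest of the 6 values was that of isoproterenol replicate 1, and the pairs differed by -0.33, 0.70 and 0.40. Its log2 fold change of 0.26 had an SE of 0.21 (95% interval -0.18 to 0.70; limma adjusted p 0.812, with the block 0.580), and leaving out isoproterenol replicate 2 or 1 took it to 0.10 or 0.46. A non-coding RNA on the same strand (ENSG00000284707) shares 2415 exonic bases with ASNS. That RNA lay lower in each pair, with no overlap between groups (log2 fold change -0.35; limma adjusted p 0.740, with the block 0.471). Both the level and the change of ASNS are therefore uncertain.

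Counted together, 0 of the 10 transcripts were called without the block by limma, edgeR or DESeq2, against 0.0165% of all genes tested with limma, and 3 had an unadjusted p under 0.05 in limma (7.68% of all genes). With the block, limma called 2 of 10 (ATF3 and ATF4, both higher), against 4.88% of all genes (2.82% higher), edgeR 3 (5.39%) and DESeq2 1 (0.789%). The unadjusted p of limma with the block was under 0.05 for 5 of 10, against 2929 of the 18130 genes tested. Of these transcripts ATF3, ATF4, TRIB3 and CHAC1 lay higher and DDIT3 lower. The groups did not overlap for 3 transcripts (ATF3 and SESN2 higher, DDIT3 lower), against 12.9% of all genes (6.73% higher, 6.19% lower). Isoproterenol was higher in all 3 pairs for 5 transcripts (18.5% of all genes), lower in all 3 for 1 (17.6%) and mixed for 4. The median log2 fold change was 0.11 with ATF3 and 0.10 without it, against 0.0015 over all genes tested.

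**Figure D2:**
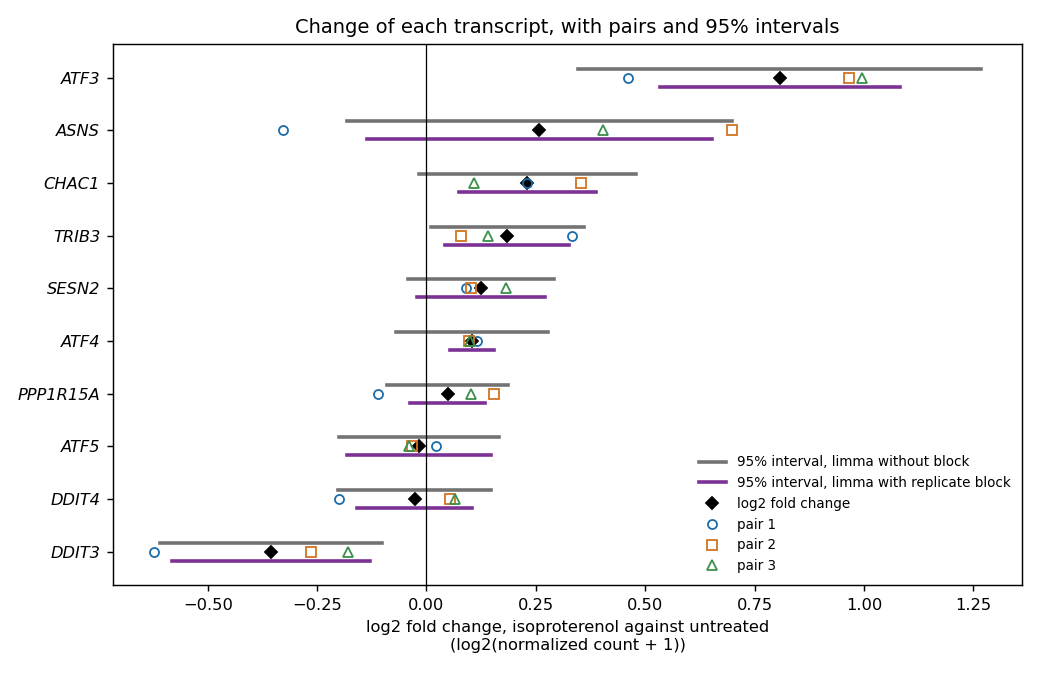
Log2 fold change of each transcript (x axis, isoproterenol against untreated, log2(normalized count + 1)), with the 3 same-numbered pairs as open symbols and the 95% intervals of limma without and with the replicate block as grey and purple lines. ATF3 stands at 0.81, every other transcript lies between -0.36 and 0.26, and the block shortens the intervals of ATF4 and CHAC1 until they leave 0.

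To ask whether ATF3 was higher by more than each partner, the log2 level of ATF3 minus that of the partner was compared between groups. This difference of differences was positive for all 9 partners, from 0.55 against ASNS to 1.16 against DDIT3, and it was positive in each of the 3 pairs for each partner. Its positive mean for every partner follows from ATF3 having the largest log2 fold change of the transcripts. All 9 comparisons also share the same ATF3 values, so they are not separate pieces of evidence. Against ATF4 it was 0.70, with 0.35, 0.87 and 0.89 in pairs 1 to 3. Against DDIT3 the pairs were alike at 1.08, 1.23 and 1.17, whereas against TRIB3 pair 1 gave 0.13 and pairs 2 and 3 gave 0.89 and 0.85. The samples of the groups did not overlap in this measure for ATF5, DDIT3, DDIT4, SESN2 and PPP1R15A, for which a two-sided exact permutation test gave p = 0.1, the smallest that 3 against 3 samples allow (0.18 after Benjamini-Hochberg adjustment over the 9 comparisons). For ATF4, ASNS and TRIB3 the exact p was 0.2 (adjusted 0.225) and for CHAC1 0.3 (adjusted 0.3). This test could not pass 0.05 with 3 samples against 3, nor could an exact sign-flip test over the 3 pairs, which gave its smallest p of 0.25 for every partner. All 9 differences stayed positive under 11 alternatives, which reuse the same samples, with 0.34 against ASNS as the lowest value.

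Per exon length the order of the transcripts was wide. On a TPM-type scale (reads per exon length, scaled to an equal total in each sample), ATF4 was at 464 in untreated and 505 in isoproterenol samples, and PPP1R15A followed at 86.8 and 90.9. DDIT4 had levels of 54.5 and 54.2, CHAC1 of 35.1 and 41.5, and DDIT3 of 32.0 and 25.3. TRIB3 had 27.9 and 32.1, SESN2 24.5 and 27.1, and ATF5 23.9 and 23.9. ATF3, at 4.82 and 8.78, and ASNS, at 2.32 and 2.85, were the lowest. In untreated samples the ranges of CHAC1 and DDIT3, and those of SESN2 and ATF5, overlapped, and all other neighbours in the order did not. With isoproterenol DDIT3 stood below TRIB3 and SESN2, with ranges that overlapped those of SESN2 and ATF5. Even in isoproterenol replicate 3, ATF3 reached 11.9 on this scale, below every sample of each transcript but ASNS.

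**Figure D3:**
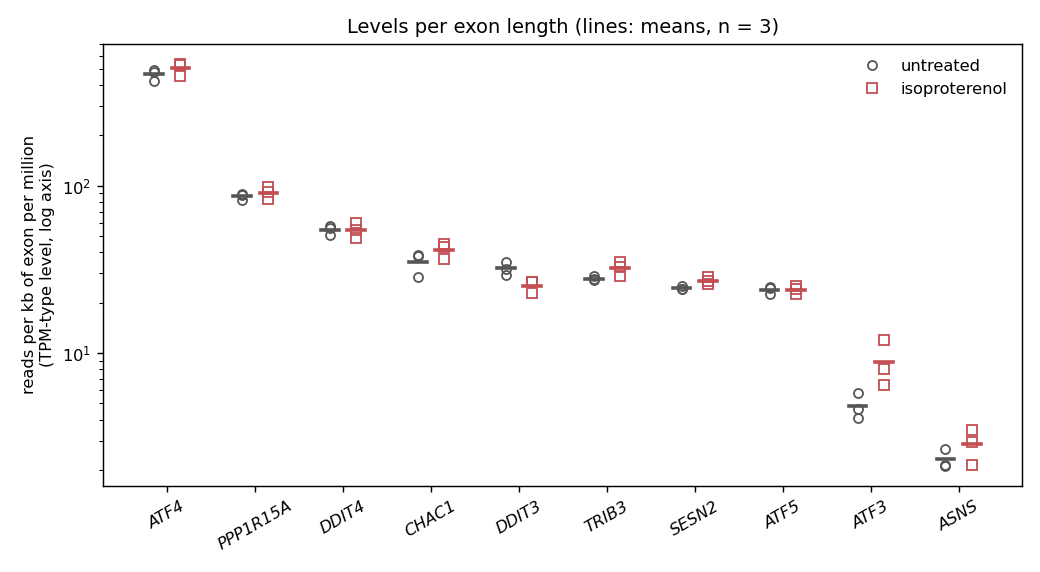
Level per exon length (y axis, log scale, TPM-type level) of each transcript in the 3 untreated (circles) and 3 isoproterenol samples (squares), with lines at the means. ATF4 is the most abundant at 464 and 505, and ATF3 at 4.82 and 8.78 is the second lowest.

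The wider pathway was examined in lists written from general knowledge, with earlier results of these data known. Since limma with the block called 4.88% of all genes (2.82% higher, 2.06% lower), a single call in a list of 10 to 20 genes is near the share among all genes. Of 20 genes for eIF2, its kinases and its regulators, limma with the block called 1, higher, with a median log2 fold change of -0.03. The called gene was EIF2AK3, which encodes PERK, the kinase that senses unfolded protein in the endoplasmic reticulum. It had 761, 686 and 703 normalized counts in untreated and 808, 777 and 887 in isoproterenol replicates, with no overlap between groups (log2 fold change 0.20; limma adjusted p 0.495, with the block 0.0188, and 0.608 in DESeq2 with the block). The farthest value of that list, -0.76, belonged to OMA1, a mitochondrial protease named here after its values were seen, at a mean of 16.2 in untreated and 9.14 normalized counts in isoproterenol samples (limma adjusted p with the block 0.337).

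Further ATF4 targets were divided by role. Of 13 amino acid and folate-cycle genes 1 was called with the block, higher, with a list median of 0.06. That gene was SHMT2, a mitochondrial enzyme that converts serine to glycine, at means of 799 ± 86.6 and 932 ± 81.1 normalized counts (log2 fold change 0.22; limma adjusted p 0.539, with the block 0.0030, and 0.317 in DESeq2 with the block). Of 10 amino acid transporters 1 was called with the block, higher, with a list median of 0.06. SLC38A2, a carrier of neutral amino acids, had 5332, 4259 and 4779 normalized counts in untreated and 6185, 5065 and 6075 in isoproterenol replicates. It was higher in each pair although the groups overlapped (log2 fold change 0.27; limma adjusted p 0.651, with the block 4.13e-14, and 3.66e-07 in DESeq2 with the block). Of 17 other targets of ATF4 or CHOP that were tested 1 was called with the block, higher, with a median of 0.05. Larger log2 fold changes that were not called belonged to the low-count genes SLC7A3 (0.63), CEBPD (0.51) and SLC43A1 (0.49), named here after their values were seen. The called gene of the last list was VEGFA, an angiogenic growth factor, at 427 ± 13.4 and 507 ± 79.0 normalized counts (log2 fold change 0.24; limma adjusted p 0.588, with the block 0.0350, and 0.697 in DESeq2 with the block).

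Chaperones of the endoplasmic reticulum and other XBP1 or ATF6 genes, which mark the neighbouring branches of the unfolded protein response, lay lower in 14 of 18 and higher in 4, with a median of -0.05, while 49.5% of all genes tested lay lower. With the block 3 of the 18 were called, all lower, against 2.06% of all genes called lower. HSP90B1 had 7742, 7460.0 and 8313 normalized counts in untreated and 6819, 6715 and 7510.0 in isoproterenol replicates, lower in each pair (log2 fold change -0.16; limma adjusted p 0.395, with the block 1.96e-07, and 0.0017 in DESeq2 with the block). HSPA5, which encodes the chaperone BiP, went from a mean of 7373 ± 623 to 6703 ± 300.2 (log2 fold change -0.14; limma adjusted p 0.593, with the block 3.27e-05, and 0.0340 in DESeq2 with the block). CALR, a calcium-binding chaperone, went from 5475 ± 274 to 5102 ± 391 (log2 fold change -0.10; limma adjusted p 0.667, with the block 0.0078, and 0.389 in DESeq2 with the block). Without the block, limma, edgeR and DESeq2 called none (0) of the genes in the eIF2, amino acid, transporter, other target and chaperone lists, and the unadjusted limma p was under 0.05 for 3, 2, 1, 2 and 3 of them.

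ATF3 and SESN2 are also known as p53 targets, and ATF3 as a responder to neuronal activity, so lists for those were set beside them. Of 15 p53 targets 1 was called with the block, CDKN1A, which encodes the cell cycle inhibitor p21, at 304, 217 and 291 normalized counts in untreated and 353, 285 and 453 in isoproterenol replicates (log2 fold change 0.42; limma adjusted p 0.651, with the block 4.75e-04, and 0.16 in DESeq2 with the block). The p53 list had a median of 0.08. Of 12 other ATF/CREB family genes 1 was called with the block, ATF2, at means of 2810.0 ± 80.9 and 3017 ± 156 (log2 fold change 0.10; limma adjusted p 0.650, with the block 0.0451, and 0.702 in DESeq2 with the block), with a list median of 0.04.

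The immediate early genes had the highest median of these lists. They include FOS and NR4A1, whose induction by isoproterenol the study had reported in its neurons with added receptor. Of the 16 tested, 12 were called with the block, all higher, and the median log2 fold change was 0.65. The 1 called without it was NR4A3, an orphan nuclear receptor named here after its values were seen, at 1225 ± 113 and 1715 ± 156 normalized counts (log2 fold change 0.49; limma adjusted p 0.0324, with the block 4.65e-16), and with untreated replicate 1 left out 0 were called without the block. FOSB, an AP-1 subunit, had 6.26, 1.94 and 10.3 normalized counts in untreated and 58.9, 138 and 268 in isoproterenol replicates (log2 fold change 4.39; limma adjusted p 0.273, with the block 3.08e-16). NPAS4, an activity-dependent factor of neurons, had 3.13, 0 and 8.28 in untreated and 36.9, 61.1 and 109.8 in isoproterenol replicates (log2 fold change 4.24; limma adjusted p 0.273, with the block 3.89e-14). FOS had 536, 648 and 679.6 in untreated and 1219, 1649 and 2338 in isoproterenol replicates (log2 fold change 1.44; limma adjusted p 0.435, with the block 0.0268). FOSL2 went from 93.9 ± 21.0 to 357 ± 178 (log2 fold change 1.84; limma adjusted p 0.442, with the block 5.08e-12). NR4A1, named here after its values were seen, had 103, 110 and 135.5 in untreated and 325, 543 and 1024 in isoproterenol replicates. Its log2 fold change was 2.28 (limma adjusted p 0.456, with the block 0.119). With the block, edgeR (adjusted p 0.0192) and DESeq2 (1.13e-07) called NR4A1, although limma did not. In FOSB, NPAS4 and FOS, as in ATF3, replicate 1 was the lowest and replicate 3 the highest of the isoproterenol samples, whereas in FOSL2 replicates 1 and 2 were alike (255 and 254) and replicate 3 was the highest (563). Of the 16 immediate early genes, 7 had a larger log2 fold change than ATF3.

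**Figure D4:**
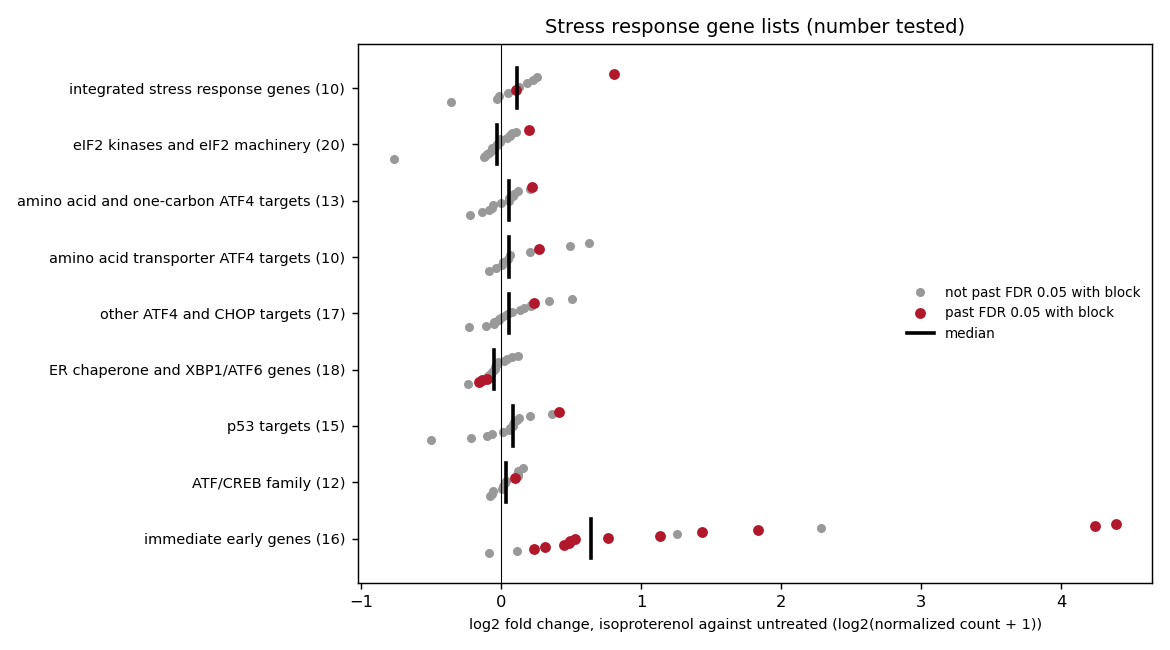
Log2 fold change (x axis, isoproterenol against untreated) of each gene tested in the stress, p53, ATF/CREB and immediate early lists, with the number tested in parentheses. Red points passed FDR 0.05 in limma with the replicate block and black bars are medians, which lie between -0.05 and 0.11 except for the immediate early genes at 0.65.

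Over the 6 samples, and among 13062 other genes whose mean reached 50 normalized counts, the log2 levels most like those of ATF3 were those of TRIB1 (Pearson r 0.999), PER1 (0.993), ZNF320 (0.989), DPF1 (0.989) and PDLIM7 (0.987). These coefficients describe the same 6 libraries, which share the group difference. They were picked as the highest of 13062 over only 6 samples, and whether they exceed chance was not tested. TRIB1, a pseudokinase related to TRIB3, had a mean of 398 ± 27.1 in untreated and 487 ± 57.6 normalized counts in isoproterenol samples (log2 fold change 0.29; limma adjusted p 0.435, with the block 0.0069). PER1, a circadian clock gene, went from 1231 ± 84.0 to 1424 ± 127 (log2 fold change 0.21; limma adjusted p 0.446, with the block 5.66e-04). ZNF320 had a log2 fold change of 0.03, DPF1 of 0.07 and PDLIM7 of 0.23. Of the 9 partners, SESN2 was the most alike (r 0.947, rank 45), followed by PPP1R15A (0.766), TRIB3 (0.650), CHAC1 (0.642), ASNS (0.611) and ATF4 (0.588). DDIT4 stood at 0.0090, and DDIT3 (-0.56) and ATF5 (-0.75) had negative coefficients.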

How the data were processed

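Poly(A) RNA was sequenced from directional libraries. The authors aligned reads to GRCh38 with STAR, counted them with featureCounts and normalized them with DESeq2. Versions, annotation release and strand setting are not given in the sources used here. The deposited values are a signal per gene, the read count divided by the sample's size factor (0.867 to 1.033). Dividing each column by its smallest step gave whole reads for 100% of values (tolerance 0.01 reads). Genes with more than 5 reads in at least 4 samples were tested (18130 of 19823).

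limma 3.58.1 (R 4.3.3; trend, robust, two-sided, pseudocount 1) was fitted over all genes, with edgeR 4.0.16 (quasi-likelihood) and DESeq2 1.42.0 on recovered reads as alternatives. The limma and edgeR fits, with and without the block, and DESeq2 without it were tested on simulated counts. DESeq2 with the block was not part of that test. After subtracting group means, samples sharing a replicate number correlated (0.269, 0.493 and 0.388 for numbers 1 to 3, over 11587 genes), so the replicate numbers of the labels were taken to pair the samples.

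Named genes are the 10 transcripts, up to 4 genes per other list past FDR 0.05 with or without the block (largest absolute log2 fold change), and the 5 genes most correlated with ATF3. Transcripts and lists were chosen with earlier results of these data known. Not analysed here were KLF4, NUPR1 and FGF21, while EGR3 was below the read filter. Positions are from GENCODE 44. The alternatives were scaling, filter, pseudocount, tool, replicate block and leaving out samples.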

Additional observations from a re-analysis of the deposited data

How the results depend on the processing

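The replicate block changed most. With it 885 genes passed FDR 0.05 in limma, against 3 without it, 977 in edgeR and 143 in DESeq2, and DESeq2 without the block gave 21. Leaving out 1 sample gave 2 to 67 genes without the block, and leaving out 1 pair gave 531, 665 and 456 with it (pairs 1 to 3). Of the 10 stress transcripts, 2 passed with the block in limma, 3 in edgeR and 1 in DESeq2, and 1 to 2 with 1 pair left out. Without the block 0 passed in any alternative. ATF3 passed with the block at a log2 fold change of 0.81 in limma, 0.83 in edgeR and 0.82 in DESeq2, and at 0.98, 0.73 and 0.71 without pairs 1 to 3. The block added the calls of ATF3 and ATF4 in limma, of ATF3, ATF4 and DDIT3 in edgeR and of ATF3 in DESeq2, and no other call among the 10. Without pair 1, DDIT3 stood at -0.22 and TRIB3 at 0.11 in limma with the block. The sign of ATF5 turned without untreated replicate 2 (0.00093) and without isoproterenol replicate 3 (0.016), with 1 sample left out giving -0.040 to 0.016. That of DDIT4 turned without untreated replicate 2 (0.0071), without isoproterenol replicate 1 (0.059) and, with the block, without pair 1 (0.060), with 1 sample left out giving -0.10 to 0.059. That of PPP1R15A turned without isoproterenol replicate 3 (-0.014) and, with the block, without pair 2 (-0.0048), with 1 sample left out giving -0.014 to 0.12. The signs of the other 7 held under all 20 alternatives. The cause of these changes was not tested. DESeq2 with the block gave no adjusted p for ASNS. ATF3 and ASNS, with the fewest reads, were the least precise.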
